A study of Caenorhabditis nigoni and Caenorhabditis briggsae with 14 samples.

Results

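C. nigoni males were compared with C. nigoni females, gene by gene, in 4 libraries of the wild-type strain JU1421: 3 from young adult males and 1 from young adult females. These 4 were chosen by strain and sex from the 14 gene-count libraries of a study of sterile hybrid males between C. nigoni and C. briggsae. All 23439 genes listed for every library were included. C. nigoni is a nematode with separate sexes. Its XX animals are females that make only oocytes, and its XO males supply all the sperm. In worms of this genus, sperm are built from abundant proteins made late in spermatogenesis, and females load oocytes with yolk and with stored maternal RNA, so the germ line makes up a large part of the difference between adult sexes.

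Every library held RNA of 300 whole animals, so germ line, gonad and body are mixed, and a higher level cannot be told apart from more cells of the type that makes the transcript. JU1421 males are labelled fertile, the females carry no such label, and no allele or treatment is listed for either. Wild-type AF16 of C. briggsae, also with 3 male libraries and 1 library labelled female, served as a second species. Animals of that species with 2 X chromosomes normally develop as hermaphrodites, which make sperm before they switch to oocytes. The strains ZZY10307 and ZZY10330, whose males are sterile, are mostly C. nigoni with a C. briggsae segment of the X chromosome, and each has 3 male libraries. Males of both carry a green fluorescent marker under a pharyngeal myosin promoter, by which they were picked. These males entered through the scaling and the gene filter, which used all 14 libraries, and through the spread between replicate libraries. Otherwise they appear only as values in a few sentences.

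Totals in the 4 JU1421 libraries ranged from 2649852 to 3415321 gene counts, with 13811 to 13957 genes counted at least once. Male libraries resembled each other more than the female one, with Spearman correlations of 0.930 to 0.932 between males and 0.730 to 0.743 between a male and the female library, over all listed genes. Replicate males still differed far beyond sampling noise, with a chi-square of 10.3 to 12.3 for each degree of freedom. Whether they were grown as separate cultures is not stated. RNA input (300 ng) and read length (150 nt) are stated for male libraries only, so sex cannot be told apart from a difference in how the male and female libraries were made. The files give WormBase gene identifiers without names or positions, so no gene could be assigned a role and the labelled sex could not be checked against known marker genes.

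More genes stood far higher in males than stood far higher in females. Of the 23439 genes, 6650 had no count in any of the 4 libraries, 5408 were counted but stood under 5 CPM (counts per 1000000, scaled by TMM) in both sexes, and 11381 reached 5 CPM in at least 1 sex. A gene was called male-biased when its mean in males was at least 4 times the female value, with a prior count of 2, it reached 5 CPM in males and every male library lay above the female one. Female-biased genes met the same conditions the other way. By this rule 2203 genes were male-biased, 19.4% of the 11381 and 9.4% of all listed genes. Female-biased were 1057 genes, 9.29% of the 11381 and 4.51% of all listed genes. The remaining 8121 genes at 5 CPM or more were in neither class.

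**Figure D1:**
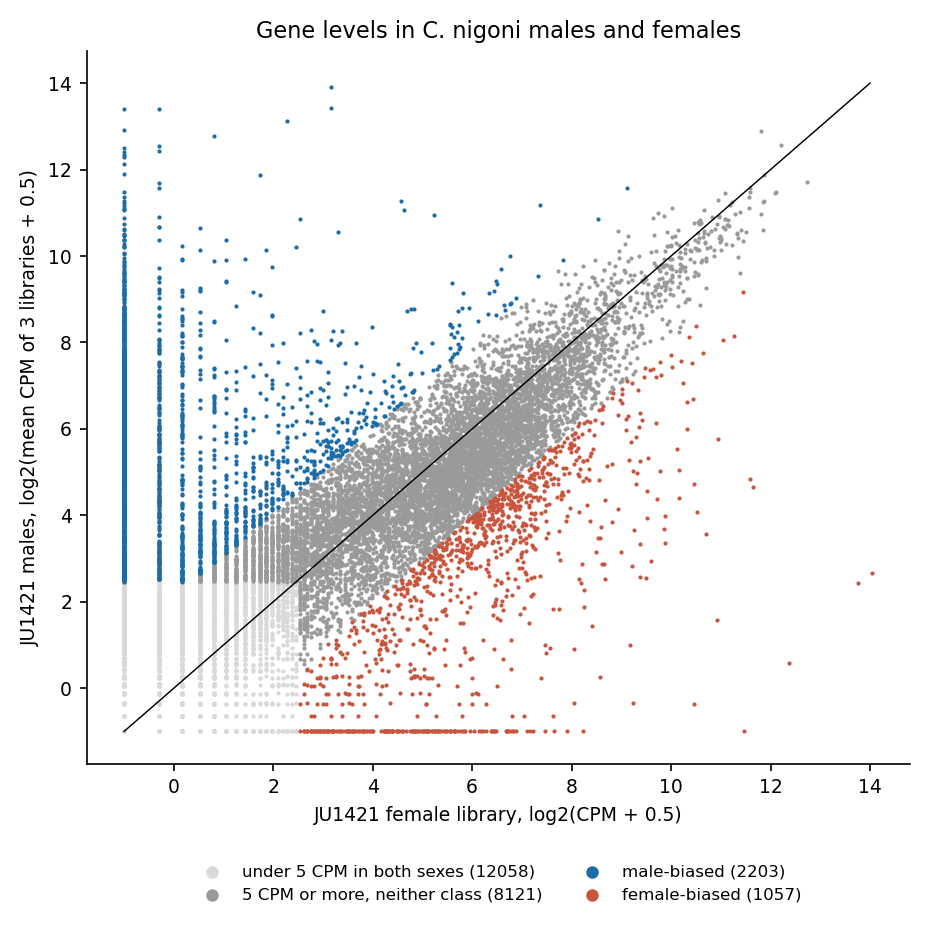
Each point is 1 of 23439 genes, placed by its level in the JU1421 female library (horizontal axis) and its mean over 3 JU1421 male libraries (vertical axis), both as log2 of CPM plus 0.5; colours give the 4 classes and the line marks equal levels. Male-biased genes form a column at the left edge, where 1107 have no female count, and female-biased genes lie mostly closer to the line.

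Male bias was steeper than female bias. The median male-biased gene was 31.4-fold higher in males (log2 4.97, quartiles 3.11 and 7.02). Holding the genes without a female count at the bound that 3 counts allow lowered this median to 4.62. The median female-biased gene was 7.84-fold higher in the female library (log2 -2.97, quartiles -4.18 and -2.36), and the same bound left it at -2.97. Beyond 64-fold stood 828 male-biased and 82 female-biased genes, or 718 and 112 with genes of no count at their bound. Between 16- and 64-fold there were 530 against 209. Milder differences leaned the other way under TMM scaling. Here 1325 genes stood 2- to 4-fold higher in males and 1713 genes 2- to 4-fold higher in the female library. These 2 numbers were not counted under other scalings. Those moved the median log2 ratio of genes at 5 CPM or more by -0.11 (total counts alone) and 0.10 (RLE factors). Within 2-fold lay 5059 genes, 44.5% of those at 5 CPM or more. Around the threshold, 142 genes stood 4- to 4.5-fold and 190 genes 3.5- to 4-fold higher in males, and 136 and 223 on the female side.

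These genes held unequal parts of the RNA in the 2 sexes. Male-biased genes took 33.6%, 35.7% and 37.2% of gene counts in the 3 male libraries, a mean of 35.5 ± 1.82% (SD, n = 3). In the female library they took 0.691% (exact 95% binomial interval 0.682 to 0.700%). Binomial intervals of the single library cover counting error only and not the spread between libraries. Female-biased genes took 18.5% of the female library (18.5 to 18.6%). In the males they took 1.65%, 1.45% and 1.34%, a mean of 1.48 ± 0.154%. Since the classes were chosen on these libraries, the shares describe how much of each transcriptome the classes hold and are no test. The 828 genes beyond 64-fold alone made up 29.3% of male counts, and the 82 genes beyond 64-fold on the female side 6.16% of female counts. Genes within 2-fold made up 47.6% of male and 58.0% of female counts.

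**Figure D2:**
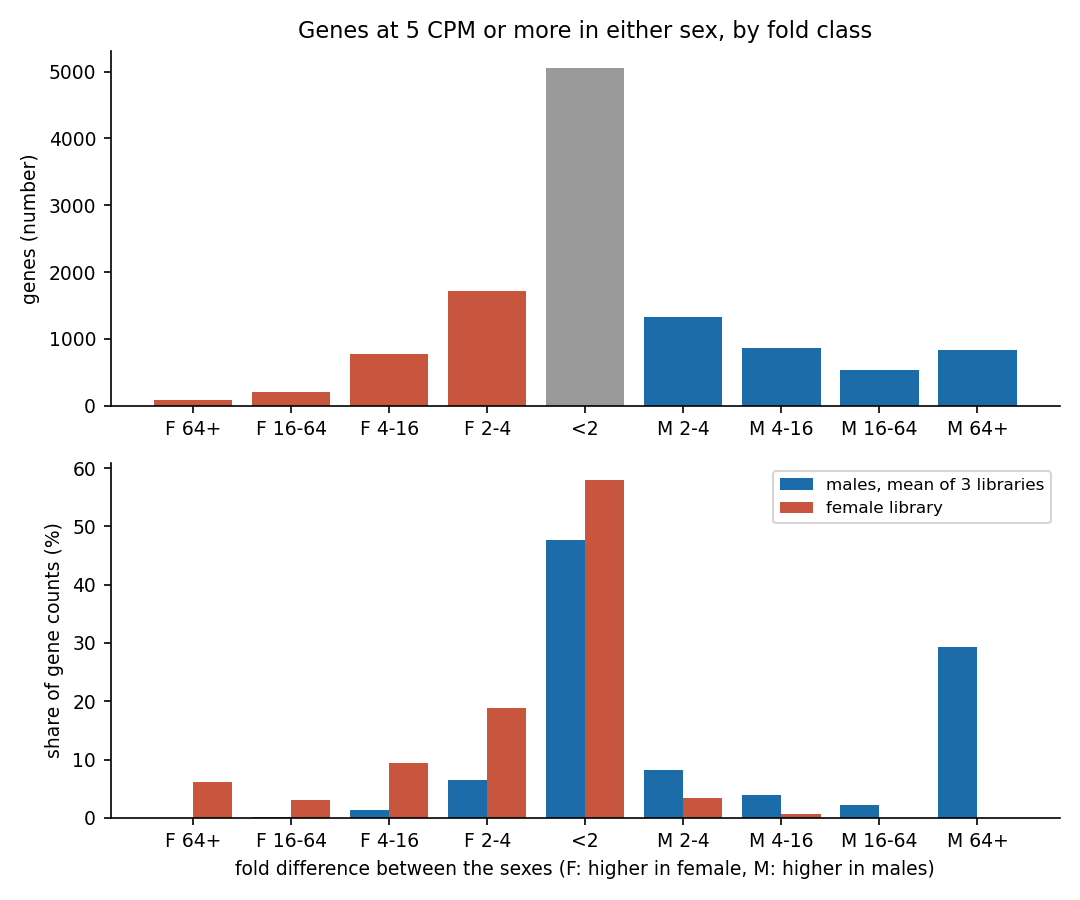
Upper panel: number of genes at 5 CPM or more in each class of fold difference, from higher in the female library (F) to higher in males (M). Lower panel: share of all gene counts held by each class in males (mean of 3 libraries) and in the female library; the 828 genes at 64-fold or more in males hold 29.3% of male counts.

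Among the genes with the most counts, male-biased genes in males were more frequent than female-biased genes in the female library. CPM is not corrected for transcript length, so ranks by CPM order genes by reads and not by transcript number. Of the 100 genes with the highest male mean, 44 were male-biased, and of the 20 highest, 16. Of the 100 highest in the female library 17 were female-biased, and of the 20 highest, 5. The male and female lists of 100 had 48 genes in common. The transcriptomes were about equally concentrated: 50% of counts came from 428 to 518 genes in the male libraries and from 542 genes in the female library. The 10 leading genes held 8.05 to 8.28% of counts in males and 6.33% in the female library.

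The proportion of male-biased genes varied with the count level. It was 20.6% among 3359 genes at 5 to 20 CPM in the higher sex, 17.5% at 20 to 100 CPM, 19.8% at 100 to 500 CPM, 24.7% at 500 to 2000 CPM and 34.9% among 86 genes at 2000 CPM or more. Female-biased genes made up 6.19%, 9.64%, 11.6%, 14.8% and 10.5% of the same bins. The median log2 ratio of male-biased genes was 3.21 in the lowest bin and 11.84 in the highest, or 2.87 and 11.52 with genes of no female count at their bound. Part of this gradient is built into the ratio, because the prior count and the limit of detection cap the ratio of weakly counted genes. Female-biased genes had medians of -3.27, -2.75, -2.90, -3.75 and -6.97 in the same order.

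**Figure D3:**
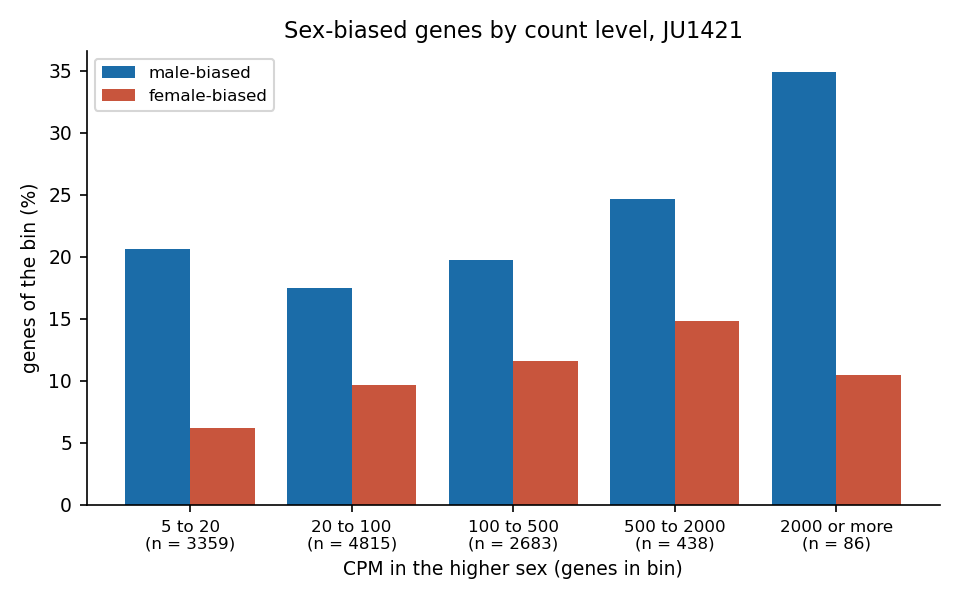
Bars give the percentage of genes that are male-biased or female-biased in each bin of CPM in the higher sex, with the number of genes in the bin under its limits. The male-biased bar is highest in the bin at 2000 CPM or more (34.9% of 86 genes).

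The 2 male-biased genes with the highest CPM had few reads in females. WBGene00039566 stood at 12101, 17697 and 16702 CPM in the male libraries and at 8.43 CPM in the female library, where it had 27 counts. It had the highest mean CPM of all genes in males, with 1.34% of their counts. Its mean of 15500.1 ± 2986 CPM (SD, n = 3) was 1839-fold above the female value. The interval of this fold, from counting error alone over the summed male counts, ran from 1267 to 2797. WBGene00027638 stood at 9672, 10007 and 13166 CPM in males and likewise at 27 counts, 8.43 CPM, in the female library. Its mean of 10949 ± 1928 CPM was 1299-fold higher (counting interval 893 to 1972). For both genes every male library lay more than 1000-fold above the female library.

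The 2 female-biased genes with the highest CPM showed the reverse. WBGene00024796 had 54224 counts in the female library, 16929 CPM or 1.59% of the total, the highest of any gene there. In males it stood at 5.11, 7.86 and 4.46 CPM, a mean of 5.81 ± 1.80 (SD, n = 3), 2914-fold lower (counting interval 2156 to 4045). WBGene00035047 had 44130 counts in the female library, 13778 CPM, and 8.09, 2.89 and 3.65 CPM in males. The male mean of 4.88 ± 2.80 CPM was 2824-fold lower (counting interval 2046 to 4087). With 7 to 19 counts per male library for either gene, the low side of these ratios rests on few reads. In the introgression males, WBGene00024796 and WBGene00035047 also stood low, at no more than 8.16 CPM in any of the 6 libraries, and WBGene00039566 and WBGene00027638 stood between 1372 and 5567 CPM.

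**Figure D4:**
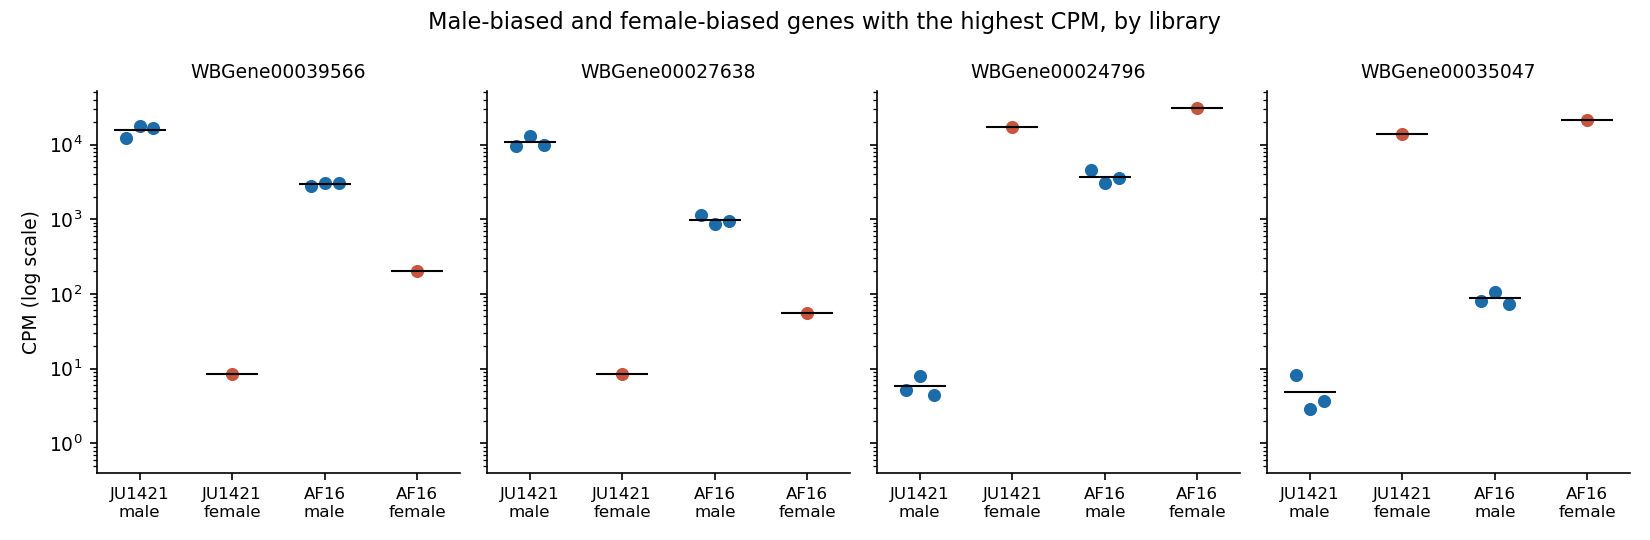
CPM on a log axis for the 2 male-biased genes (left panels) and the 2 female-biased genes (right panels) with the highest CPM; each point is a library of JU1421 or AF16, and bars mark group means. JU1421 male and female points are more than 1000-fold apart in all 4 panels.

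Among the 20 male-biased genes with the highest CPM, male means ran from 2839 to 15500.1 CPM with a median of 5492. Female values ran from 0 to 552 CPM with a median of 0.312, and 9 of the 20 had no female count. These 20 genes held 11.2% of male counts. The 20 female-biased genes with the highest CPM ran from 1318 to 16929 CPM, with a median of 1963, in the female library. Their male means ran from 0 to 572 CPM with a median of 27.1, and 1 of the 20 had no male count. They held 6.52% of female counts. Levels in the other sex were thus lower for the 20 male-biased than for the 20 female-biased genes, at the median.

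Many genes were counted in 1 sex only. Of the male-biased genes, 1107 of 2203 had no count in the female library. A count of 0 there allows up to 0.937 CPM (3 counts). With the required 5 CPM in males, each of the 1107 was therefore bound to be at least 4-fold higher in males, and 537 were at least 64-fold higher. Their median male level was 57.2 CPM, 382 of them exceeded 100 CPM in males, and the highest reached 10741 CPM, at least 11468-fold above the female limit. Among the female-biased genes 169 of 1057 had no count in any male library, where 3 counts over the group correspond to 0.415 CPM. By the same minimum all 169 were bound to be at least 4-fold higher in the female library, and 75 were at least 64-fold higher. The 169 had a median of 21.9 CPM, with 17 genes above 100 CPM. Intervals and limits cover counting error only.

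Over all listed genes, 2832 were counted in males and not in the female library, and 1042 the other way. Those numbers compare 3 libraries with 1. At a common depth of 2649852 counts, 1 male library is expected to show 2109 to 2211 genes that the female library lacks, and the female library 1863 to 1966 genes that the male library lacks. At a minimum of 10 counts, summed over the 3 males or in the female library, 1683 genes were counted in males with none in the female library and 218 the other way. At 50 counts the numbers were 1025 and 101.

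A fit across genes placed the ratios against the spread between replicates. In edgeR's quasi-likelihood test all 14 libraries were fitted with 1 coefficient per strain and sex, and the spread came from the 12 male libraries, so that the lone female library was assumed to vary as males do. Of 15609 genes tested, 2032 (13%) were higher in males and 1745 (11.2%) lower at a Benjamini-Hochberg adjusted p below 0.05. The higher genes had a median fitted log2 difference of 8.16, which depends on the prior count because 955 of them had no female count. With those at their bound the median ratio was 4.95. The lower genes had a median of -1.91, or -1.88 with 117 genes of no male count at their bound. When the same fit was tested against a 4-fold change instead of no change, 1283 genes were higher and 281 lower. The balance of calls against no change depended on the tool and the scaling. DESeq2 called 2526 genes higher and 1454 lower, of 13092 genes to which it gave an adjusted p, against 15609 tested by edgeR. With RLE factors edgeR called 2130 and 1548. With counts scaled by total alone it called 1933 and 1988, where the order turned.

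Of the 2203 male-biased genes, 1668 (75.7%) passed this test and 535 did not. Of the 1057 female-biased genes, 765 (72.4%) passed and 292 did not. The ratio rule used the same contrast, so these counts say how many ratios exceed the replicate spread and are not independent of the choice of genes. Male-biased genes that did not pass had fewer counts, with a median of 9.23 CPM in males against 71.2 CPM for those that passed. They also varied more between males, with a median gap between the highest and lowest male library of 1.22 on the log2 scale against 0.51. On the female side the medians were 17.8 and 96.8 CPM in the female library. In neither class stood 359 genes called higher and 976 called lower in males, so that most of the calls outside the classes were genes with a smaller excess in females. The named genes passed, with log2 differences of 10.84 (SE 0.63) for WBGene00039566, 10.34 (SE 0.67) for WBGene00027638, -11.50 (SE 0.55) for WBGene00024796 and -11.46 (SE 0.91) for WBGene00035047. The largest of their adjusted p (edgeR) was 6.35e-06.

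The spread between male libraries was read beside the count level, which the classes themselves set. Male-biased genes had a median of 43.8 CPM in males, female-biased genes 6.64 CPM and genes in neither class 28.9 CPM. The gap between the highest and lowest male library had a median of 0.62 on the log2 scale over male-biased genes, 0.97 over female-biased genes and 0.70 over genes in neither class. Few counts widen this gap and the levels were not matched, so the classes are not ranked by their spread. All 3 males were individually past 4-fold for 1877 of the male-biased and 716 of the female-biased genes.

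The JU1421 classes were then read in AF16, whose libraries took no part in choosing them beyond the scaling common to all libraries. Of the 2203 genes male-biased in C. nigoni, 1407 (63.9%) were male-biased in AF16 by the same rule and 9 were female-biased. Over all 11381 genes at 5 CPM or more in JU1421, 14.4% were male-biased and 6.76% female-biased in AF16. Of the 1057 female-biased genes, 539 were female-biased in AF16 and 5 male-biased. The same class in AF16 was more frequent at larger ratios in JU1421. It was found for 30.2% of male-biased genes at 4- to 16-fold, 72.5% at 16- to 64-fold and 92.8% beyond 64-fold. For female-biased genes the shares were 37.5%, 82.3% and 97.6%. Genes under 5 CPM in both sexes of AF16 could not be called there but stay in these shares. On the male side they were 262 of 845, 107 of 530 and 50 of 828 genes in the same order. On the female side they were 68 of 766, 26 of 209 and 2 of 82. How much of the rise goes with count level was not tested. Among genes in neither class 2.86% were male-biased and 2.72% female-biased in AF16. Both female libraries are described apart from the males in the labels, so any difference in how libraries of the 2 sexes were made may be common to both species.

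By edgeR, 1263 of the 2203 male-biased genes were higher in AF16 males than in that strain's female library and 13 lower, against 11% higher and 7.64% lower of the 15609 genes tested. Of the 1057 female-biased genes 502 were lower in AF16 males and 2 higher. Across 10329 genes at 5 CPM or more in both species, the log2 ratios of the 2 strains correlated at 0.844 (Pearson) and 0.805 (Spearman), and 80.2% had the same sign. Genes are not independent replicates and libraries of each strain were normalised together, so this is a description.

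Genes with strong male bias in C. nigoni had smaller ratios in C. briggsae at the median. They were chosen for their JU1421 ratio, which favours smaller ratios in any other strain. The 828 genes beyond 64-fold in JU1421 had a median log2 ratio of 7.53 there (quartiles 6.77 and 8.44), or 7.14 with the 647 genes of no female count at their bound. In AF16 their median was 3.78, a 13.8-fold excess (quartiles 3.25 and 4.37), and 556 of them (67.1%) lay between 8- and 32-fold. The 10th and 90th percentiles were 2.55 and 6.39. No count in the AF16 female library was found for 118 of the 828. Of these, 14 had none in AF16 males either, and the other 104 had a median bound of 6.31. The 82 genes beyond 64-fold on the female side had a median of -6.90 in JU1421 and -5.29 in AF16.

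**Figure D5:**
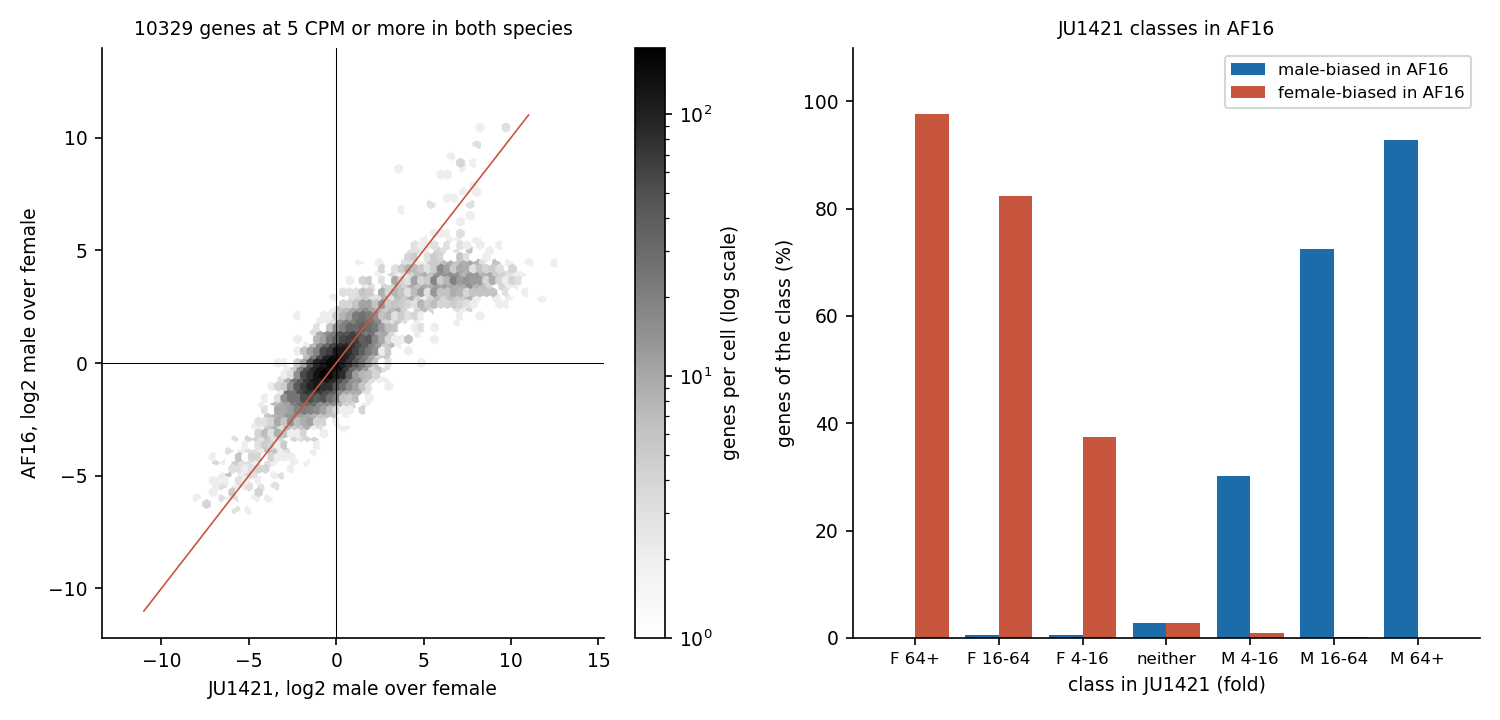
Left: log2 male over female in JU1421 (horizontal) and AF16 (vertical) for 10329 genes at 5 CPM or more in both, with shading for the number of genes per cell on a log scale and a line of equal ratios; genes above 64-fold in JU1421 have an AF16 median of 3.78. Right: percentage of each JU1421 class that is male-biased or female-biased in AF16, rising to 92.8% and 97.6% in the outermost classes. Genes under 5 CPM in both sexes of AF16 are included in the percentages as not called.

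Levels in the 2 species were set side by side for the genes male-biased in both. Which reference the C. nigoni reads were counted on is unknown here. A difference in level or a count of 0 between species cannot be told apart from a difference in how their reads map. The 1407 genes male-biased in both strains had a median of 73.4 CPM in JU1421 males and 68.9 CPM in AF16 males. Their median was 0 in the JU1421 female library, with 869 genes at no count, and 3.75 CPM in the AF16 female library, with 170 at no count. Over all genes male-biased in JU1421, the share of counts was 30.4 ± 0.506% in AF16 males (SD, n = 3). It was 2.81% in the AF16 female library (exact 95% binomial interval 2.79 to 2.83%, counting error only). The 539 genes female-biased in both had medians of 74.6 and 61.1 CPM in the JU1421 and AF16 female libraries and 3.58 and 4.32 CPM in males. Of the 1107 male-biased genes without a JU1421 female count, 843 had counts in the AF16 female library, 427 of them at least 10, and 869 were male-biased in AF16. Of the 169 female-biased genes without a JU1421 male count, 85 were counted in AF16 males and 119 were female-biased in AF16.

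The difference between species was tested as an interaction, the male-female difference in JU1421 minus that in AF16, in the same edgeR fit. The contrast is signed, so a smaller difference is a more female-sided one in JU1421 and need not be a weaker one. It was larger, that is more male-sided, in JU1421 for 698 genes (4.47% of 15609) and smaller for 86 (0.551%) at an adjusted p below 0.05. A shift common to both female libraries cancels in this contrast, but each species has 1 female library. Of the 698 genes, 630 were male-biased in JU1421 and 552 in both strains. Their median level was 159 CPM in JU1421 males and 125 CPM in AF16 males, 0 in the JU1421 female library and 12.7 CPM in the AF16 one. None of the 698 lacked a count in the AF16 female library, whereas 422 lacked one in the JU1421 female library. Of the 828 genes beyond 64-fold, 545 were among those with a larger difference and none among those with a smaller one. A count of 0 in a female library raises the fitted difference of its strain. The contrast itself thus favours zeros in the JU1421 female library, and not in the AF16 one, among genes with a larger difference. Because the contrast also holds the libraries that chose the classes, these breakdowns are descriptive. Of the 20 male-biased genes with the highest CPM, 19 had a larger difference in JU1421, and their median was 0.312 CPM in the JU1421 female library against 236 CPM in that of AF16.

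The 86 genes with a smaller difference were of mixed kinds. In JU1421, 33 were female-biased, 2 male-biased and 50 in neither class, and 1 stood under 5 CPM. Their median log2 ratio was -1.41 in JU1421 and 0.93 in AF16, so smaller here meant more female-sided and not always weaker. Opposite classes in the 2 strains were found for 14 genes, 9 male-biased in JU1421 and female-biased in AF16, and 5 the other way. The interaction passed for 10 of the 14.

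The 4 genes named above had the same direction in AF16, and the difference in size passed for 3 of them. WBGene00039566 had 2765, 3085 and 3088 CPM in AF16 males against 202 CPM in the AF16 female library, a 14.8-fold difference. The interaction was 6.96 on the log2 scale (SE 0.59, edgeR adjusted p = 9.06e-09). WBGene00027638 had 1137, 869 and 941 CPM in AF16 males against 56.2 CPM in the female library of that strain, 17.5-fold (interaction 6.21, SE 0.63, edgeR adjusted p = 4.86e-07). For WBGene00024796 the AF16 female library gave 30989.5 CPM and the AF16 males 4509, 3104 and 3517 CPM, an 8.35-fold difference (interaction -8.44, SE 0.84, edgeR adjusted p = 6.07e-06). WBGene00035047 had 80.4, 107 and 73.1 CPM in AF16 males against 21217 CPM in the library labelled female, 244-fold, and its interaction of -3.53 (SE 1.22) did not pass (edgeR adjusted p = 0.208).

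In the sterile introgression males, genes male-biased in JU1421 took 13.1 ± 0.527% of counts in ZZY10307 and 19.9 ± 2.34% in ZZY10330 (SD, n = 3), and female-biased genes 3.62 ± 0.177% and 2.73 ± 0.269%. All 6 libraries stood between the JU1421 males and the JU1421 female library for both classes. The classes were chosen on JU1421 libraries, which favours lower male-biased shares in any other strain. In AF16 males the male-biased genes took 30.4 ± 0.506% of counts and the female-biased genes 2.86 ± 0.131% (SD, n = 3). How much of the lower share in the sterile males goes with the choice of classes was not tested.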

How the data were processed

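The authors deposited raw counts per gene, whole numbers per library, per the file headers. Reads were trimmed with Trimmomatic, and edgeR was used, per the submitters' processing notes, without versions. The aligner, counter, build, annotation and strand setting were not given in the sources used here. Counts of near-identical or overlapping genes may therefore hold reads of each other. Repeat-family counts cover male libraries only and were not used here.

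Counts were scaled by TMM over all 14 libraries (edgeR 4.0.16, R 4.3.3). Ratios compare the mean of the 3 males with the single female library. The test was edgeR's quasi-likelihood F test with robust fitting on genes kept by filterByExpr (minimum count 10), with Benjamini-Hochberg adjustment. DESeq2 1.42.0 was an alternative. The SE was derived from the F statistic. The labels give the library groups. Genes named are the 2 per class with the highest CPM in the higher sex. The scripts were tested on simulated data, where the ratio rule without a test also called unchanged genes. The comparison, classes and rules were chosen with earlier results of these data known. P-values measure the spread between these libraries, which may be technical.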

Additional observations from a re-analysis of the deposited data

Results flagged for a closer look

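The interaction between sex and species passed for 698 genes with a larger male-female difference in JU1421 than in AF16 and for 86 genes with a smaller one (edgeR, adjusted p below 0.05, 15609 genes tested). Among the named genes it passed for WBGene00039566 with a log2 interaction of 6.96, for WBGene00027638 with 6.21 and for WBGene00024796 with -8.44. The contrast was male minus female and signed. Here and below, a smaller difference is therefore a more female-sided one in JU1421, as for WBGene00024796, and need not be weaker. Each species has 1 female library, so none of these differences has a replicate check on the female side. Genes male-biased in JU1421 took 2.81% of the AF16 and 0.691% of the JU1421 female library, and the part of this in the result was not tested. They were chosen for a low level in the JU1421 female library, which by itself favours a lower share there than in AF16.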

How the results depend on the processing

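No paired analysis was possible because the single female library shares no set of replicate numbers with the males. At a 2-fold threshold 3408 genes were male-biased and 2764 female-biased, and at 8-fold 517 were female-biased. The male-biased share of male counts was then 42.9% at 2-fold and 32.7% at 8-fold, and the female-biased share of the female library 37.4% and 11.7%. Tested against a 4-fold change, edgeR called 1283 genes higher and 281 lower in males. DESeq2 found a smaller male-female difference in JU1421 for 151 genes, of 9118 to which it gave an adjusted p, against 15609 tested by edgeR. Requiring 10 counts, summed over the 3 males or in the female library, left 1683 genes counted in males only and 218 in the female library only. These numbers compare 3 libraries with 1. At a common depth a mean of 1922 genes was expected in the female library and not in 1 male library, and 2172 the other way.

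Leaving out each JU1421 male library in turn gave 2211 to 2295 male-biased and 1098 to 1165 female-biased genes, 1882 to 1922 genes higher and 1424 to 1590 lower in males, and a female-biased share of 18.3% to 19.7%. The male-biased share was between 35.4% and 35.5%, but it was averaged over all 3 males each time and only the gene list changed. Across single male libraries the share with the main gene list ran from 33.6% to 37.2%. Leaving out a JU1421 or AF16 male library gave 652 to 697 genes with a larger and 61 to 124 with a smaller difference in JU1421. Counts scaled by total alone moved the median log2 ratio of genes at 5 CPM or more by -0.11 and RLE factors by 0.10, from 0.06. Under these, male-biased genes numbered 2047 and 2289 and female-biased genes 1174 and 980. The log2 ratios of the 4 named genes moved by less than the SD between males in all 6 settings tried for each. In the settings that left out a male library this was nearly fixed in advance, because the SD came from the same 3 males. Only the settings that changed the scaling could have shown otherwise. Of the remaining alternatives none changed a count by more than 1.5 times. The female side rests on 1 library, whose removal leaves no comparison.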

Other observations

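One abundant gene in neither class, WBGene00250008, varied far more between male libraries than other abundant genes. It was chosen after its values were seen. It stood at 14364, 1218 and 7276 CPM in the 3 JU1421 males, an 11.8-fold range, and at 3576 CPM in the female library. In AF16 it ranged from 4295 to 17278 CPM in males and stood at 4451 CPM in the female library. Over the 163 genes at 1000 CPM or more in JU1421 males the median range between the male libraries was 1.33-fold, and WBGene00250008 was the 1 gene of these whose range exceeded 4-fold.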
